A study of Mus musculus with 23 samples.

Results

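The cathepsins and cystatin C make up a set of 10 genes chosen by name: the lysosomal proteases Ctsb, Ctsc, Ctsh, Ctsk, Ctsl, Ctss, Ctsz, Ctsd and Ctsa, and Cst3, which encodes cystatin C, a secreted inhibitor of the cysteine cathepsins. All 10 were present among the 18876 genes of the deposited count table, and all 10 had at least 5 counts in at least 3 samples and so were tested, among 18759 genes. The data are bulk RNA-sequencing counts of CD11b+ cells that were captured with magnetic beads from the hippocampus of female mice, with both hippocampi going into each sample. CD11b is a surface protein of microglia that other myeloid cells carry too. Every mouse, in all 4 groups, carried floxed Slc11a2 and 1 copy of Cx3cr1 Cre-ERT2, a tamoxifen-inducible Cre recombinase under the Cx3cr1 promoter, which is also active in other macrophages, on a mixed 129S;C57BL/6J background. Slc11a2 encodes the iron importer DMT1. APP/PS1 mice were hemizygous for the APP/PS1 transgenes, a mutant amyloid precursor protein that joins mouse and human sequence and a mutant presenilin 1, and their WT littermates lacked them. To make Slc11a2KD mice, animals 5 to 6 months old were gavaged with tamoxifen (4 mg a day for 5 days), and Control mice were gavaged with corn oil, so that tamoxifen itself and the knockdown cannot be told apart. All mice were euthanized at 15 to 18 months. The groups held 6 Control WT, 6 Control APP/PS1, 5 Slc11a2KD WT and 5 Slc11a2KD APP/PS1 samples, without Control APP/PS1 0010, taken to be the 1 outlier of that group that the study removed because its heat map lacks it.

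Cathepsins are made as inactive proenzymes, sorted to endosomes and lysosomes, and activated there by cleavage in the acidic lumen. In microglia they degrade phagocytosed material, including amyloid-β and myelin, and several are secreted on activation, where cystatins bind and block the cysteine cathepsins but not cathepsin D or cathepsin A. Cystatin C is among the most abundant transcripts of homeostatic microglia, and it has been found together with amyloid-β in plaques. Among the cysteine cathepsins, Ctsb encodes a broad endopeptidase that also removes dipeptides from the carboxyl end of its substrates, Ctsl and Ctss encode endopeptidases that trim the invariant chain of MHC class II, and Ctsk encodes the collagen-degrading enzyme of osteoclasts. Ctsc encodes an exopeptidase that activates serine proteases of immune cells, Ctsh an aminopeptidase and Ctsz a carboxypeptidase. Ctsd encodes the main aspartic protease of the lysosome, and Ctsa a serine carboxypeptidase that also protects neuraminidase 1 and β-galactosidase in a complex.

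The genes lie on 6 chromosomes of GRCm39, and all are protein-coding in GENCODE M39. Ctsb (chr14:63358384-63383372, plus strand), Ctsl (chr13:64507151-64518704, minus strand) and Ctsc (chr7:87927092-87960096, plus strand) are on separate chromosomes, and Ctsd (chr7:141929646-141941775, minus strand) shares a chromosome with Ctsc. Ctsk (chr3:95406178-95416732) and Ctss (chr3:95433963-95463717) are both on the plus strand of chromosome 3, and Ctsh is at chr9:89936205-89958148 on the plus strand. Chromosome 2 holds Ctsz (chr2:174267304-174280832, minus strand), Ctsa (chr2:164674778-164682961, plus strand) and Cst3 (chr2:148713635-148717887, minus strand). The 5 sequences that follow are the 250 bases upstream of the canonical transcript starts of Ctsb, Ctsd and Ctsa, whose levels moved together from sample to sample, and of Ctsz and Cst3, which had the smallest adjusted p-values of the higher and the lower members in Control APP/PS1 samples. They were read from GRCm39 at chr14:63359627-63359876 (plus strand), chr7:141941776-141942025 (minus strand), chr2:164674533-164674782 (plus strand), chr2:174280833-174281082 (minus strand) and chr2:148717562-148717811 (minus strand), are written 5′ to 3′ and end at the base before the transcript start.
Ctsb: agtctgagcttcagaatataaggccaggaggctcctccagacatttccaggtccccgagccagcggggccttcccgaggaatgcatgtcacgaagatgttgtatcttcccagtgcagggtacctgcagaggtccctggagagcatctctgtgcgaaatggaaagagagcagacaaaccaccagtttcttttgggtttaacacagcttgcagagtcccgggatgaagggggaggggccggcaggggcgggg
Ctsd: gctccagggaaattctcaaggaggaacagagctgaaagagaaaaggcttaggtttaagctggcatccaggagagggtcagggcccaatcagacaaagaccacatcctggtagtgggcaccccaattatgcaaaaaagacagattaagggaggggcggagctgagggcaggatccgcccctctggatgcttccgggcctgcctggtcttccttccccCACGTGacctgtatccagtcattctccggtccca
Ctsa: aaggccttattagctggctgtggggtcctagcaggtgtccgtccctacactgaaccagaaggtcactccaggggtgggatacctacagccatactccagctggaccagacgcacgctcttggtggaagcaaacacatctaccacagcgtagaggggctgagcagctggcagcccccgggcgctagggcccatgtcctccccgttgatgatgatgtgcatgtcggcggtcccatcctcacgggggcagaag
Ctsz: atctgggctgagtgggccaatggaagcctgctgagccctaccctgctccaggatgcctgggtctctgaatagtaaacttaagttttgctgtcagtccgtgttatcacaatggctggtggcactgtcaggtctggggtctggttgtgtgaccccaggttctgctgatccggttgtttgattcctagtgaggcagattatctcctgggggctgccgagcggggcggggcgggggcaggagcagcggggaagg
Cst3: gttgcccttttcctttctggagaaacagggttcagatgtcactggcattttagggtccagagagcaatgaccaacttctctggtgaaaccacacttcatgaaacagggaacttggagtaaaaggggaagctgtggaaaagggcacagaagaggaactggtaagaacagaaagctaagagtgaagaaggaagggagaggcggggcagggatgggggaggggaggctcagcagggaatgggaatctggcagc

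The capitals in the Ctsd sequence mark CACGTG, the E-box letters to which factors of the TFEB family bind, 29 bases before the transcript start. Ctsd was the only member with this match in its 250 bases, and 6.26% of the windows of the same length of 21770 protein-coding genes hold it on either strand. The longer TCACGTGA (0.753% of all windows), which contains CACGTG, the PU.1 letters GAGGAAGT (2.08%) and the AP-1 letters TGANTCA (6.17%) were found in the windows of 0 of the 10 members on either strand. A match is a description of letters, not of binding.

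Each sample held between 31128643 and 54872491 counts, and the 10 genes together held between 1.91% and 4.27% of them. CPM here stands for read counts scaled to library size with edgeR's TMM factors. The microglia markers (7 genes, Tmem119 and P2ry12 among them) summed to between 26769 and 41163 CPM, with each group's range lower in APP/PS1 than in WT samples. Summed markers of choroid plexus epithelium (10 genes) were at most 5.41 CPM in every Control APP/PS1 sample and reached 1966 CPM in Control WT, where 0012 and 0015 stood apart, 788 CPM in Slc11a2KD WT and 488 CPM in Slc11a2KD APP/PS1. Library numbers ran from 5 to 17 in Control samples and from 1 to 4 or 18 to 23 in Slc11a2KD samples, and whether these runs mark a batch is not given in the labels. Slc11a2 itself was not lower in Slc11a2KD samples when reads over the whole gene were counted, with a log2 fold change of -0.04 ± 0.14 (adjusted p = 1) in WT and 0.39 ± 0.14 (adjusted p = 0.205) in APP/PS1 samples. Gene totals do not separate the floxed exons from the rest, so they do not check the knockdown, and group names follow the labels. The study itself reports a loss of Slc11a2 expression over part of the gene's exons in its knockdown microglia, and a check of the knockdown by RT-qPCR.

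Cst3 was the most highly expressed member in every group, whichever length was used. Per kilobase of the canonical transcript, Cst3 was at 20744 ± 2937 CPM per kb (mean ± SD, n = 6) in Control WT samples, followed by Ctss at 4447 ± 537, Ctsd at 1643 ± 171, Ctsb at 409 ± 23.1 and Ctsh at 371 ± 36.8 CPM per kb. Ctsz, Ctsc and Ctsl came next in that order at 255 ± 37.8, 249.9 ± 18.4 and 216 ± 35.0 CPM per kb, and Ctsa was at 160.2 ± 9.22 CPM per kb. The sample ranges of neighbours in this order overlapped from Ctsb to Ctsh and from Ctsz through Ctsc and Ctsl to Ctsa, and did not overlap elsewhere. In Control APP/PS1 samples the levels per kilobase of Ctss (2998 ± 303 CPM per kb) and Ctsd (2687 ± 407 CPM per kb) overlapped, and Ctsz (642 ± 69.9 CPM per kb) and Ctsl (379.7 ± 67.1 CPM per kb) stood above Ctsc (276 ± 27.7 CPM per kb). With the union of all annotated exons as the length, Ctsd came before Ctss in every group, at 1263 ± 132 against 1145 ± 138 CPM per kb in Control WT. By this length, the sample ranges of Ctsd and Ctss overlapped in Control WT and Slc11a2KD WT and did not in the APP/PS1 groups.

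Ctsk, the osteoclast enzyme, was close to absent. It had 0 counts in 4 of 6 Control WT and 4 of 6 Control APP/PS1 samples, and its highest level was 1.83 CPM, 62 counts, in Control WT 0015. In Slc11a2KD WT samples it ranged from 0 to 0.765 CPM, and in Slc11a2KD APP/PS1 samples from 0 to 1.39 CPM. No difference between groups was detectable for Ctsk at this depth (edgeR adjusted p from 0.481 to 1 in the 4 comparisons), and no fold change is given for it.

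The first comparison asked how APP/PS1 samples differed from WT samples without the knockdown. In Control APP/PS1 samples, 6 of the 10 members were higher than in Control WT samples (Ctsz, Ctsb, Ctsl, Ctsd, Ctsa and Ctsh) and 2 were lower (Cst3 and Ctss), while Ctsc and Ctsk did not pass the threshold (edgeR quasi-likelihood test, Benjamini-Hochberg adjusted p under 0.05). Of all genes tested, 5.99% were higher and 4.48% lower by the same rule. The median log2 fold change was 0.60 over the 9 members other than Ctsk and -0.02 over all genes. In bulk RNA, fewer cells of a type and less RNA per cell cannot be told apart.

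Among the cysteine cathepsins, Ctsz, the carboxypeptidase, ranged from 760.4 to 1100.1 CPM (median 824, n = 6) in Control WT and from 1926 to 2525 CPM (median 2195, n = 6) in Control APP/PS1. The lowest Control APP/PS1 sample was above the highest Control WT sample, and the mean was 2.52-fold higher (log2 fold change 1.33 ± 0.10 SE, adjusted p = 4.14e-09). Ctsb ranged from 1840.1 to 2115 CPM (median 1933, n = 6) in Control WT and from 3722 to 5469 CPM (median 4548, n = 6) in Control APP/PS1. The groups did not overlap, and Control WT samples lay within a narrow band around their mean of 1954 ± 111 CPM (2.32-fold higher in Control APP/PS1, log2 fold change 1.21 ± 0.17 SE, adjusted p = 1.81e-05). Ctsl ranged from 998 to 1615 CPM (median 1266, n = 6) in Control WT and from 1932 to 3006 CPM (median 2103, n = 6) in Control APP/PS1, again without overlap (1.75-fold, log2 fold change 0.81 ± 0.13 SE, adjusted p = 0.000145). The highest Control APP/PS1 sample for Ctsl, 0013, stood apart from the other 5. Ctsh, the aminopeptidase, rose less (1.35-fold, log2 fold change 0.43 ± 0.10 SE, adjusted p = 0.00436), with a mean of 609.8 ± 60.4 CPM in the 6 Control WT samples and of 823 ± 56.4 CPM in the 6 Control APP/PS1 samples (± SD). Its groups overlapped by 1 sample of each, since the lowest Control APP/PS1 sample, 0017, at 710.1 CPM, lay below the highest Control WT sample, 0014, at 715 CPM.

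Ctsd, the aspartic protease, ranged from 3072 to 4073 CPM (median 3455, n = 6) in Control WT and from 4889 to 7237 CPM (median 5632, n = 6) in Control APP/PS1. None of these 6 Control APP/PS1 samples reached down to the Control WT range (1.63-fold higher, log2 fold change 0.71 ± 0.13 SE, adjusted p = 0.000542), but 0010, which was left out, lay within it at 3761 CPM. Ctsa, the serine carboxypeptidase, ranged from 536 to 633 CPM (median 596, n = 6) in Control WT and from 749 to 1083 CPM (median 909, n = 6) in Control APP/PS1, also without overlap (1.52-fold, log2 fold change 0.60 ± 0.16 SE, adjusted p = 0.0163). The call for Ctsa was lost with Control APP/PS1 0010 kept (log2 fold change 0.50, adjusted p = 0.0671), a sample in which Ctsa was at 483 CPM, below the Control WT range. It was also lost without Control WT 0012 and 0015, the libraries high in choroid plexus markers (0.56, adjusted p = 0.0852).

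Ctss was the cysteine cathepsin that went the other way. It ranged from 5140.5 to 7328 CPM (median 6041, n = 6) in Control WT and from 3581 to 4806 CPM (median 4005, n = 6) in Control APP/PS1, and every Control APP/PS1 sample was below every Control WT sample (0.674-fold, log2 fold change -0.57 ± 0.18 SE, adjusted p = 0.0435). The fall was near the threshold: leaving out any 1 library of either group other than 0005 or 0014 gave a log2 fold change between -0.59 and -0.51 and an adjusted p between 0.0564 and 0.0998. Without 0012 and 0015 it was -0.57 (adjusted p = 0.112). Cst3 ranged from 15649 to 23661 CPM (median 18631, n = 6) in Control WT and from 7829.6 to 11471 CPM (median 9389, n = 6) in Control APP/PS1. The mean fell to 0.488 of its level in Control WT (log2 fold change -1.04 ± 0.11 SE, adjusted p = 7.33e-07), with no overlap between the groups, and this fall passed the threshold in every alternative run. In all, 7 of the 10 members had groups that did not overlap, against 8.36% of all genes tested, with 0010 left out. With 0010 counted, Ctsd and Ctsa would overlap. Ctsc was at 673 ± 49.6 CPM in Control WT and 744 ± 74.6 CPM in Control APP/PS1 (SD, n = 6 each), and the 95% interval of its log2 fold change ran from -0.05 to 0.34 (adjusted p = 0.394).

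**Figure D1:**
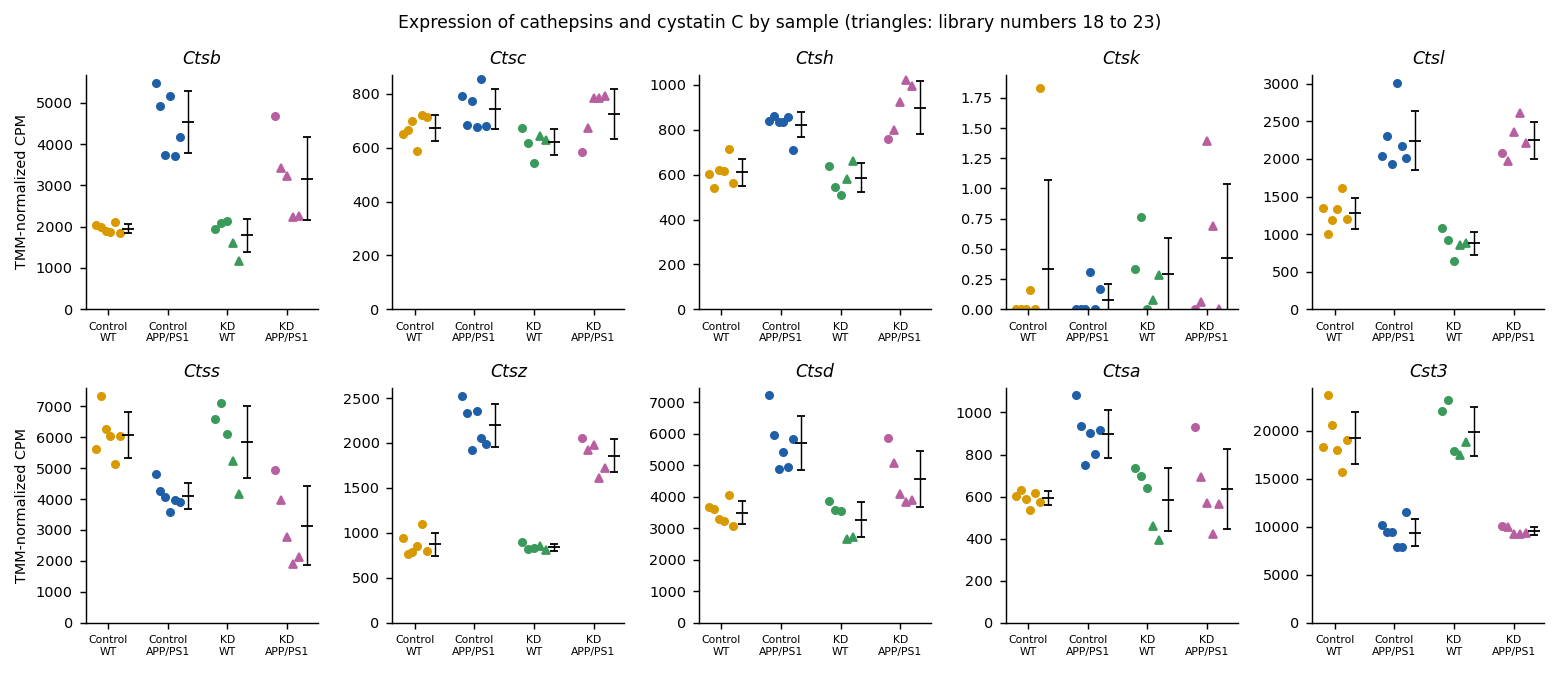
Level of each of the 10 genes in each of the 22 samples, in TMM-normalized CPM on a linear axis from 0, by group (KD, Slc11a2KD), with the mean and SD beside the points; triangles are library numbers 18 to 23. Ctsz, Ctsb, Ctsl, Ctsd and Ctsa lay higher, and Ctss and Cst3 lower, in every Control APP/PS1 sample than in any Control WT sample, while Ctsk stayed below 2 CPM throughout.

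Markers of other cells moved with this comparison. Summed microglia markers ranged from 35578 to 40828 CPM in Control WT and from 26769 to 30832 CPM in Control APP/PS1, and 4 of the 7 were lower and 0 higher. Markers of border-associated macrophages were lower for 5 of 7 genes (221 to 428 CPM summed in Control WT, 91.8 to 197 CPM in Control APP/PS1), and markers of neutrophils and monocytes for 4 of 6 (74.5 to 269.9 CPM and 21.9 to 81.8 CPM). Astrocyte markers summed to 6.74 to 13.7 CPM in Control WT and 35.3 to 98.1 CPM in Control APP/PS1, with 1 of 5 higher, and 8 of 10 choroid plexus markers were lower. Of the markers of endothelium and mural cells, 3 of 5 were lower and 1 higher (151 to 320.4 CPM and 99.8 to 131 CPM summed), and 3 of 5 were lower for oligodendrocytes (208 to 444 CPM and 130.5 to 242 CPM), 2 of 5 for neurons and 1 of 5 for lymphocytes. The part of these cells in the differences of the cathepsins and Cst3 was not tested.

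The same question was asked within the knockdown. In Slc11a2KD APP/PS1 samples, 5 members were higher than in Slc11a2KD WT samples (Ctsl, Ctsz, Ctsb, Ctsh and Ctsd) and 2 were lower (Cst3 and Ctss), and Ctsa, Ctsc and Ctsk did not pass the threshold. Of all genes tested, 9.77% were higher and 6.41% lower. The median log2 fold change over the 9 members other than Ctsk was 0.48, against -0.07 over all genes. No sample is shared with the comparison of the Control groups, but the spread was estimated in the same fit.

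Of the members, Ctsl had the largest fold change here. It was at 1076, 926, 648, 849 and 884 CPM in Slc11a2KD WT samples 0001, 0002, 0003, 0019 and 0022 and at 2079, 1973, 2362, 2608 and 2211 CPM in Slc11a2KD APP/PS1 samples 0004, 0018, 0020, 0021 and 0023, the order used throughout. The lowest Slc11a2KD APP/PS1 sample was well above the highest Slc11a2KD WT sample (2.56-fold higher, log2 fold change 1.36 ± 0.15 SE, adjusted p = 8.92e-07). Ctsz was at 894, 813, 827, 848 and 803 CPM in Slc11a2KD WT and at 2053, 1925, 1979.9, 1607 and 1725 CPM in Slc11a2KD APP/PS1. Slc11a2KD WT samples were close together for Ctsz, and no sample of the other group came near them (2.22-fold, log2 fold change 1.15 ± 0.11 SE, adjusted p = 2.54e-07). Ctsh was at 640.2, 544, 509, 581 and 661 CPM in Slc11a2KD WT and at 759, 798, 922, 1021 and 997 CPM in Slc11a2KD APP/PS1, without overlap (1.53-fold, log2 fold change 0.62 ± 0.11 SE, adjusted p = 0.000360).

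Ctsb was at 1937, 2087, 2144, 1610.4 and 1180.2 CPM in Slc11a2KD WT and at 4671, 3409, 3227, 2223 and 2260.2 CPM in Slc11a2KD APP/PS1. The groups did not overlap, but the spread was wide within both, with 0004 the highest and 0022 the lowest sample (1.76-fold, log2 fold change 0.82 ± 0.18 SE, adjusted p = 0.00332). Ctsd was at 3882, 3572, 3535, 2647 and 2729 CPM in Slc11a2KD WT and at 5861, 5089.8, 4095, 3826 and 3910.2 CPM in Slc11a2KD APP/PS1. Its groups overlapped by 1 sample of each, 0001 and 0021 (1.39-fold, log2 fold change 0.48 ± 0.14 SE, adjusted p = 0.0228), and its call was lost without 0018 (log2 fold change 0.44, adjusted p = 0.0513) or 0019 (0.41, adjusted p = 0.0539). Ctsa was at 736, 697, 639, 461 and 392 CPM in Slc11a2KD WT and at 933, 694, 568, 421 and 563 CPM in Slc11a2KD APP/PS1, and the ranges overlapped widely (log2 fold change 0.12 ± 0.18 SE, adjusted p = 0.703). Ctsa passed the threshold with library numbers 18 to 23 as a covariate (log2 fold change 0.41, adjusted p = 0.0321) and with 1 surrogate variable as a covariate (0.45, adjusted p = 0.00130). With only the compared groups in the fit, the call of Ctsd was lost (0.51, adjusted p = 0.101).

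Ctss was at 6585, 7107, 6103, 5228 and 4166 CPM in Slc11a2KD WT and at 4928, 3973, 2757, 1904 and 2129 CPM in Slc11a2KD APP/PS1. Only 0004 of the Slc11a2KD APP/PS1 samples lay within the Slc11a2KD WT range (0.538-fold, log2 fold change -0.90 ± 0.20 SE, adjusted p = 0.00332), and the call was lost with only the compared groups in the fit (log2 fold change -0.86, adjusted p = 0.0706). Cst3 was at 22043, 23173, 17902, 17472 and 18852 CPM in Slc11a2KD WT and at 10064, 9969, 9265, 9201 and 9288 CPM in Slc11a2KD APP/PS1. The Slc11a2KD APP/PS1 samples differed little from each other for Cst3, and all were far below the Slc11a2KD WT samples (0.481-fold, log2 fold change -1.06 ± 0.12 SE, adjusted p = 2.76e-06). Ctsc was at 621 ± 48.4 CPM and 724 ± 92.4 CPM (SD, n = 5 each; log2 fold change 0.22 ± 0.10 SE, adjusted p = 0.142), and of the samples left out in turn only 0004 brought it past the threshold (log2 fold change 0.29, adjusted p = 0.0344). Of the 10 members, 5 (Ctsb, Ctsh, Ctsl, Ctsz and Cst3) had groups that did not overlap, against 7.06% of all genes.

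The groups were uneven in library numbers, with 2 of 5 Slc11a2KD WT and 4 of 5 Slc11a2KD APP/PS1 samples numbered 18 to 23. With only these 6 knockdown libraries kept beside the Control samples, a setting chosen after the data were seen, the same 7 members passed the threshold, with log2 fold changes of 1.37 for Ctsl, 1.10 for Ctsz, 0.96 for Ctsb, 0.62 for Ctsd, 0.56 for Ctsh, -0.83 for Ctss and -0.98 for Cst3 (adjusted p from 2.66e-04 to 0.0260). In that fit 2.6% of 18366 genes were higher and 2.09% lower. Microglia markers were lower for 6 of 7 genes in this comparison (36485 to 41163 CPM summed in Slc11a2KD WT, 29748 to 33509 CPM in Slc11a2KD APP/PS1). Markers of border-associated macrophages were lower for 3 of 7 genes (258 to 511 CPM and 131 to 194 CPM), without overlap of the sums. Astrocyte markers summed to 5.60 to 16.5 CPM and 37.7 to 124 CPM, with 1 of 5 higher. For endothelium and mural cells and for oligodendrocytes, 1 of 5 markers each was lower, and no marker of neutrophils and monocytes (6 tested), choroid plexus (10), neurons (5) or lymphocytes (5) passed the threshold. The part of these cells in the result was not tested.

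**Figure D2:**
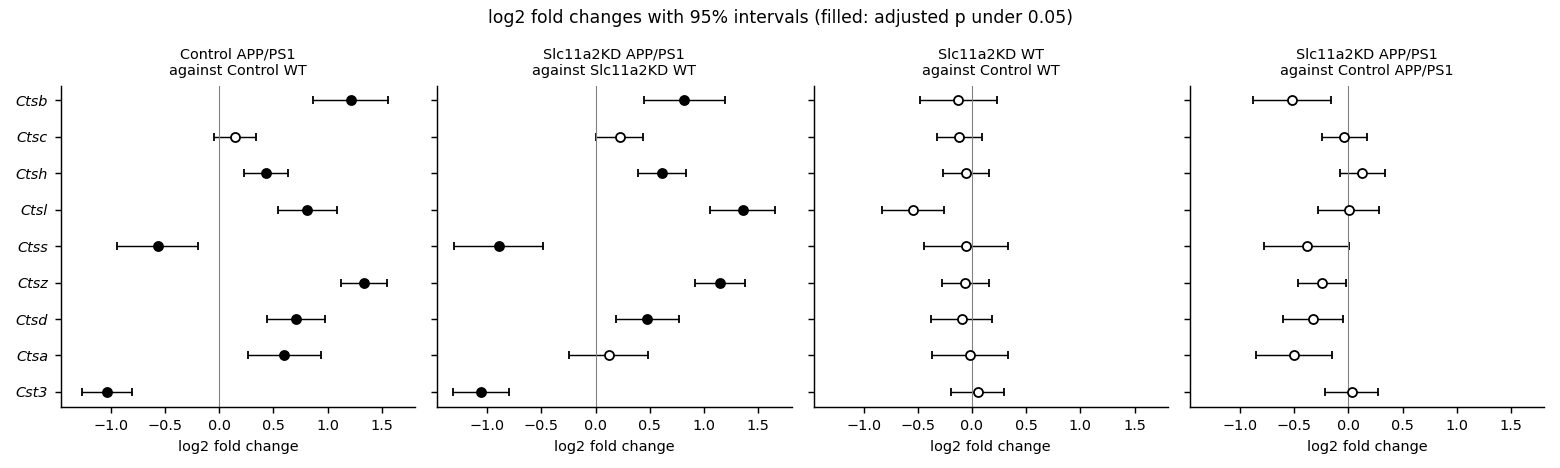
Log2 fold change of 9 genes (Ctsk left out) in the 4 comparisons, from edgeR, with 95% intervals; filled points have an adjusted p under 0.05. In both comparisons of APP/PS1 with WT, Ctsb, Ctsh, Ctsl, Ctsz and Ctsd lay above 0 and Ctss and Cst3 below it, and no point is filled in the comparisons of Slc11a2KD with Control.

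Summed cathepsins relative to Cst3 were higher in every APP/PS1 sample than in any WT sample. The 9 cathepsins summed to 0.823 ± 0.116 CPM per CPM of Cst3 in Control WT, 2.30 ± 0.361 in Control APP/PS1, 0.726 ± 0.0820 in Slc11a2KD WT and 1.79 ± 0.250 in Slc11a2KD APP/PS1 (mean ± SD). The ratio ran from 0.607 to 1.03 over the 11 WT samples and from 1.56 to 2.78 over the 11 APP/PS1 samples. The genotypes thus did not overlap in this ratio, with or without the knockdown. It is a ratio of read counts scaled to library size, not of molecules, and is given without a test. Cst3, its denominator, did not overlap between the genotypes by itself. The summed cathepsins did not overlap in Control samples (14819 to 16514 CPM in WT, 18884 to 24789 CPM in APP/PS1). In Slc11a2KD samples they did overlap (11443 to 16425 CPM in WT, 14396 to 21869 CPM in APP/PS1).

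**Figure D3:**
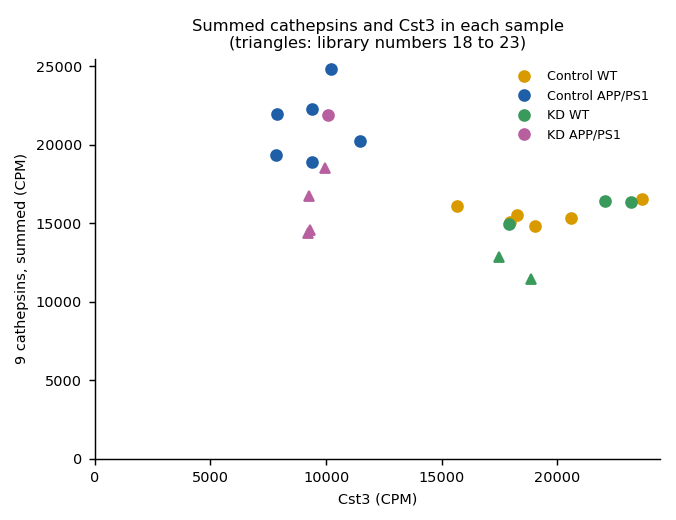
Summed level of the 9 cathepsins against the level of Cst3 in each of the 22 samples, both in TMM-normalized CPM with axes from 0; colours are the 4 groups (KD, Slc11a2KD) and triangles library numbers 18 to 23. The 11 APP/PS1 samples lie to the left at lower Cst3 and the 11 WT samples to the right, and the triangles lie below the circles of their own group.

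The next comparison asked what the knockdown changed in WT mice. Of the 10 members, 0 passed the threshold in Slc11a2KD WT against Control WT, as did 0% of all genes tested with edgeR (5.92%, 1110 genes, at an unadjusted p under 0.05), while DESeq2 called 10 genes and limma voom 1 gene, none of them a member. The median log2 fold change was -0.06 over the 9 members other than Ctsk and 0.01 over all genes. Ctsl was the only member with an unadjusted p under 0.05. It was at 1076, 926, 648, 849 and 884 CPM in Slc11a2KD WT, against a range from 998 to 1615 CPM (median 1266, n = 6) in Control WT. Only 0001 lay within the Control WT range (log2 fold change -0.54 ± 0.14, edgeR p = 0.000641, adjusted p = 0.715), and an exact permutation test of the mean log2 CPM gave p = 0.00866, which is not adjusted for the number of genes.

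For the other 8 members with counts throughout, the log2 fold changes lay between -0.13 (Ctsb) and 0.05 (Cst3), each with an adjusted p of 1. The narrowest 95% intervals were those of Ctsc, -0.32 to 0.09, and Ctsh, -0.27 to 0.16. Cst3 was at 19188 ± 2717 CPM (SD, n = 6) in Control WT and 19888 ± 2564 CPM (SD, n = 5) in Slc11a2KD WT, with an interval of -0.19 to 0.29.

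Within Slc11a2KD WT, the members were also compared between the runs of library numbers. In 0019 and 0022 against 0001 to 0003, the log2 fold change was -0.70 ± 0.22 (adjusted p = 0.0609) for Ctsa, -0.56 ± 0.24 (adjusted p = 0.148) for Ctsb, -0.45 ± 0.18 (adjusted p = 0.132) for Ctsd and -0.49 ± 0.27 (adjusted p = 0.255) for Ctss. For each of these 4 genes both later libraries were below all 3 earlier ones, but how many of all genes divide this way was not counted. Of the 10 members, 0 passed the threshold of the adjusted p in this split, which 4.07% of all genes did, and 3 (Ctsa, Ctsb and Ctsd) had an unadjusted p under 0.05, as did 24.8% of all genes. Ctsl, Ctsz, Ctsh and Ctsc differed by at most 0.14 on the log2 scale between the runs.

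The last comparison asked what the knockdown changed in APP/PS1 mice. Of the 10 members, 0 passed the threshold in Slc11a2KD APP/PS1 against Control APP/PS1 with all samples, as did 0% of all genes tested with edgeR. DESeq2 called 580 genes, Ctsb (log2 fold change -0.48) and Ctsa (-0.46) among them with an adjusted p of 0.0495 each, and limma voom called 2 genes and 0 members. At an unadjusted p under 0.05, 4 members differed, all lower (Ctsb, Ctsa, Ctsd and Ctsz), where 20.6% of all genes (3862) differed and 9.74% were lower. The smallest adjusted p among the members was 0.205, which was also the smallest of any gene, and the median log2 fold change was -0.24 over the 9 members other than Ctsk and 0.01 over all genes. These samples are also part of the comparisons with WT, so the comparisons are not independent.

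Ctsb ranged from 3722 to 5469 CPM (median 4548, n = 6) in Control APP/PS1 and was at 4671, 3409, 3227, 2223 and 2260.2 CPM in Slc11a2KD APP/PS1. All but 0004 of the Slc11a2KD APP/PS1 samples lay below this range (log2 fold change -0.52 ± 0.17 SE, adjusted p = 0.205; exact permutation p = 0.0346). Ctsa ranged from 749 to 1083 CPM (median 909, n = 6) in Control APP/PS1, and again all but 0004 (933 CPM) of the Slc11a2KD APP/PS1 samples lay below that range (log2 fold change -0.50 ± 0.17 SE, adjusted p = 0.205; exact permutation p = 0.0260). Both statements hold without Control APP/PS1 0010, where Ctsb was at 2807 CPM and Ctsa at 483 CPM. With 0010 counted, 0021 and 0023 would lie below the range for Ctsb and 0021 for Ctsa. Ctsd was -0.33 ± 0.14 (adjusted p = 0.207) and Ctsz -0.24 ± 0.11 (adjusted p = 0.214) on the log2 scale, with exact permutation p-values of 0.0606 and 0.0303. Ctss, with a mean of 4095 ± 414 CPM over the 6 Control APP/PS1 samples and of 3138 ± 1283 CPM over the 5 Slc11a2KD APP/PS1 samples (± SD), had the widest spread, relative to its mean, of the members other than Ctsk in the latter group (log2 fold change -0.38 ± 0.19 SE, adjusted p = 0.250). The log2 fold changes of Ctsl, Ctsc, Ctsh and Cst3 were 0.00 (95% interval -0.28 to 0.29), -0.04 (95% interval -0.24 to 0.17), 0.13 (95% interval -0.08 to 0.34) and 0.03 (95% interval -0.21 to 0.27).

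Leaving out 1 sample, Slc11a2KD APP/PS1 0004, changed the calls of this comparison. It held the highest level of Ctsb, Ctss, Ctsd, Ctsa, Ctsz and Cst3 and the lowest of Ctsc and Ctsh among the Slc11a2KD APP/PS1 samples, is the only one of them with a library number below 18, and had 2.30 CPM of summed choroid plexus markers, where the other 4 had 87.7 to 488 CPM. The summed astrocyte markers of 0004, at 124 CPM, were the highest of the 22 samples, where the other 4 of its group had 37.7 to 42.7 CPM. Without 0004, 4 members were lower and 0 higher, where 9.07% of 18700 genes were lower and 7.34% higher. Ctsb was then -0.70 ± 0.16 (adjusted p = 0.0202), Ctsa -0.68 ± 0.16 (adjusted p = 0.0202), Ctss -0.61 ± 0.17 (adjusted p = 0.0249) and Ctsd -0.43 ± 0.13 (adjusted p = 0.0326) on the log2 scale. Ctsz was -0.28 ± 0.11 (adjusted p = 0.0836), and the median over the 9 members other than Ctsk was -0.28. Without 0004 every Slc11a2KD APP/PS1 library has a number from 18 to 23 and every Control APP/PS1 library a number from 5 to 17, so the knockdown and the run of library numbers cannot be told apart. These 4 libraries also had more choroid plexus markers than any Control APP/PS1 sample (at most 5.41 CPM), and their summed microglia markers, from 31078 to 33509 CPM, lay above the Control APP/PS1 range of 26769 to 30832 CPM. The part of these cells in the result was not tested. With the run as a covariate and 0004 kept, Ctsa, Ctsd and Ctss were 0.04, 0.03 and 0.09 on the log2 scale, each with an adjusted p of 1, and Ctsb was -0.045. The covariate set libraries 18 to 23 against all others, and 0004 was the only Slc11a2KD APP/PS1 library outside that run. These values therefore rest on 0004 and on a run effect shared with the Slc11a2KD WT libraries.

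Whether the APP/PS1 difference itself differed between Slc11a2KD and Control was tested as an interaction. Of the 10 members, 0 passed the threshold, as did 0% of all genes with edgeR (9.08%, 1703 genes, at an unadjusted p under 0.05), while DESeq2 called 25 genes and limma voom 1. Ctsl alone passed 0.05 before adjustment, with a difference of 0.55 ± 0.19 on the log2 scale (edgeR adjusted p = 0.544), its log2 fold change being 0.81 in Control and 1.36 in Slc11a2KD samples. Ctsa passed the threshold in Control (log2 fold change 0.60) and not in Slc11a2KD samples (0.12), but the interaction of -0.48 ± 0.24 did not pass the threshold (adjusted p = 0.544) and ranged from -0.66 to -0.089 over the alternatives. With the library run or 1 surrogate variable as a covariate, Ctsa also passed the threshold in Slc11a2KD samples, and the interaction was -0.19 and -0.089 (adjusted p of 1 in both). For Ctsb it was -0.39 ± 0.24 (adjusted p = 0.550).

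From sample to sample within groups, some members moved together and others moved apart. After the mean of each group was subtracted from log2 CPM, the Pearson correlation over the 22 samples was 0.90 between Ctsb and Ctsa, 0.89 between Ctsd and Ctsa, 0.85 between Ctss and Ctsa, 0.83 between Ctsb and Ctsd and 0.80 between Ctsb and Ctss. Ctsh correlated with Ctsl (0.65) and Ctsc (0.64) and against Ctss (-0.71) and Ctsb (-0.54). Ctsz correlated with Ctsb (0.62) and Ctsd (0.63), and Cst3 with no other member beyond 0.48 in size. The set of Ctsb, Ctsd, Ctsa and Ctss held cysteine, aspartic and serine enzymes, while Ctsh and Ctsc, both cysteine exopeptidases, lay outside it. These correlations are descriptions of the same libraries, whose depth and library run are shared by all members. Every knockdown sample of the run 18 to 23 was lower in Ctsb, Ctsd, Ctsa and Ctss than the other samples of its group. Neither this pattern nor correlations of this size were counted over all genes, so they are not shown to be particular to the cathepsins.

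**Figure D4:**
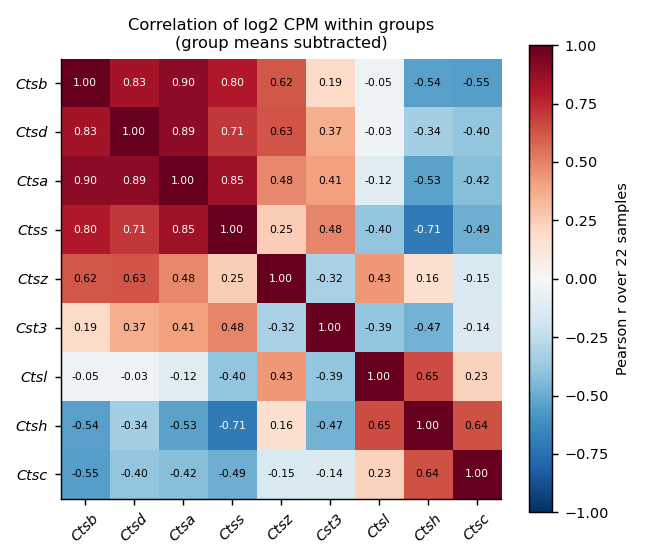
Pearson correlation of log2 CPM between 9 genes (Ctsk left out) over the 22 samples after each group's mean was subtracted, with the value in each cell and colour from -1 to 1. Ctsb, Ctsd, Ctsa and Ctss form a block of values from 0.71 to 0.90, and Ctsh is negative against each of them.

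Other genes tracked single members by the same measure, among 11888 tested genes with a mean of at least 1 CPM. The closest to Ctsb were Plxdc2 (r = 0.96) and Clip2 (r = 0.96), to Ctsa Zzz3 (r = 0.95) and Ccdc47 (r = 0.94) and to Ctss Ctcf (r = 0.96) and Hp1bp3 (r = 0.95). Ctsd was closest to another member, Ctsa (r = 0.89) and Fbxl20 (r = 0.89). Among the closest to Ctsz was Cd68 (r = 0.84), which encodes a lysosomal membrane glycoprotein of phagocytes, and the closest to Ctsl were Serpinb6a (r = 0.80) and Cox6a2 (r = 0.77), the former encoding an intracellular protease inhibitor. For Ctsh they were Tpi1 (r = 0.91) and Tmem192 (r = 0.88), the latter encoding a lysosomal membrane protein, for Ctsc Tlr2 (r = 0.83) and Tmem29 (r = 0.82), the former a pattern recognition receptor of microglia, and among the closest to Cst3 was Cask (r = 0.81). For Ctsk, with counts near 0, Gm43775 (r = 0.79) and Emc8 (r = 0.77) were closest.

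The other genes of the protease and inhibitor system were taken from lists. Of 14 other cathepsins, 5 were tested, and in Control APP/PS1 against Control WT 1 was higher and 1 lower, beside 5.99% and 4.48% of all genes. Ctse, an aspartic endosomal protease, averaged 10.3 ± 11.2 CPM over the 6 Control WT samples and 102 ± 103 CPM over the 6 Control APP/PS1 samples (± SD), which is a log2 fold change of 3.29 ± 0.88 (adjusted p = 0.0156), and Ctsf, a cysteine cathepsin, was -0.38 ± 0.08 (adjusted p = 0.00416). Of 21 other cystatins and stefins, 6 were tested and 2 were higher, beside the same 5.99% of all genes. Cst7, which encodes the endolysosomal inhibitor cystatin F, rose from 13.8 ± 19.2 CPM (SD, n = 6) to 433 ± 129.5 CPM (SD, n = 6), 4.96 ± 0.54 (adjusted p = 8.00e-07) on the log2 scale, and Cstb, a cytosolic inhibitor, was 1.11 ± 0.22 (adjusted p = 0.00107). Cst7 and Cstb were thus higher in the comparison in which Cst3, the secreted inhibitor, was lower. The same 4 genes passed the threshold in the same direction in Slc11a2KD APP/PS1 against Slc11a2KD WT, with 5.52 ± 1.08 (adjusted p = 0.00122) for Ctse, -0.39 ± 0.09 (adjusted p = 0.00581) for Ctsf, 5.38 ± 0.61 (adjusted p = 1.74e-06) for Cst7 and 1.62 ± 0.24 (adjusted p = 5.79e-05) for Cstb. Of all genes tested, 9.77% were higher and 6.41% lower in that comparison.

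All 19 listed genes of the maturation, sorting and partners of cathepsins were tested. In Control APP/PS1 against Control WT, 6 were higher and 3 lower (median log2 fold change 0.27), beside 5.99% and 4.48% of all genes, and in Slc11a2KD APP/PS1 against Slc11a2KD WT, 5 were higher and 4 lower (median 0.01), beside 9.77% and 6.41%. Gnptab, the enzyme that builds the mannose 6-phosphate tag by which many lysosomal enzymes are sorted, rose by 1.46 ± 0.26 (adjusted p = 0.000347) as a log2 fold change in Control APP/PS1. Glb1 and Neu1, the partners of cathepsin A, rose by 0.79 ± 0.12 (adjusted p = 6.70e-05) and 0.50 ± 0.12 (adjusted p = 0.00816), and Grn, the gene of progranulin, by 0.44 ± 0.10 (adjusted p = 0.00670). In Slc11a2KD APP/PS1 against Control APP/PS1, 8 of the 19 had an unadjusted p and 0 an adjusted p under 0.05 with edgeR, where 20.6% of all genes had an unadjusted p under 0.05. Without 0004, 8 of the 19 were lower and 0 higher, beside 9.07% and 7.34% of all genes. Of 5 genes of class II antigen presentation, where Ctss and Ctsl act, 3 were lower and 0 higher in Control APP/PS1 against Control WT. H2-Aa fell by 2.22 ± 0.57 (adjusted p = 0.0115), H2-Ab1 by 1.75 ± 0.47 (adjusted p = 0.0168) and Cd74, the invariant chain, by 1.63 ± 0.39 (adjusted p = 0.00690). These 3 did not pass the threshold in Slc11a2KD APP/PS1 against Slc11a2KD WT, where 1 of the 5, H2-DMb1, was higher by 0.53 ± 0.17 (adjusted p = 0.0369).

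Some members share exon sequence with other annotated genes, where reads may be left uncounted or counted for either gene. Which of these happened was not tested. For Ctsd, 35% of the 100-base windows of the canonical transcript were shared with Gm49369 on the same strand. For Ctsl it was 26.6%, with Gm49230 on the same strand and Gm47123 on the other. The shares were 23.6% for Ctsa (Neurl2 and Pltp), 23.2% for Ctsb (Fdft1) and 19.6% for Ctsz (Nelfcd). These overlaps are those of GENCODE M39, a later release than the one the study counted with. The strand setting of the authors' counting is not given in the sources used here. How reads shared with opposite-strand genes were handled is therefore not known for Ctsa, Ctsb, Ctsl and Ctsz. Ctsc, Ctsh, Ctsk, Ctss and Cst3 shared 0% of such windows with another gene.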

How the data were processed

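RNA of CD11b+ hippocampal cells of female mice was sequenced as paired-end poly(A) libraries. Per the labels and the study's methods, the authors trimmed reads with Trim Galore 0.6.7, aligned them with STAR to mm39 and counted reads per gene with STAR. The deposited count table holds these whole-number counts without normalization. A second deposited table of counts normalized with DESeq2 1.36.0 was not used. Each column was mapped to a sample by its label, and 0 per-sample columns were left unused. The study calls the samples of a group biological replicates, and the labels number no animals.

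Counts of 22 of 23 samples were scaled by TMM and fitted with all 4 groups and no covariate in edgeR 4.0.16 (quasi-likelihood F test, two-sided, R 4.3.3), over the 18759 genes that reached 5 counts in 3 or more samples. The Benjamini-Hochberg adjustment covered every gene tested, and the threshold was 0.05. The SE was the log2 fold change divided by the square root of F, and 95% intervals used its t distribution. Exact permutation tests over samples (scipy 1.17.1) compared mean log2 CPM with a prior count of 2. Control APP/PS1 0010, the Control APP/PS1 sample absent from the study's heat map, was left out as the study removed 1 sample of that group. Totals of 31128643 to 54872491 counts leave counting error small beside the spread between samples for all members but Ctsk.

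All 10 members were named. From other lists, up to 4 genes were named, those with the largest absolute log2 fold change among genes past the threshold in Control APP/PS1 against Control WT and at a mean of at least 1 CPM. The members and lists were chosen with earlier results of these data known. H2-DMb1 lay outside the rule for these lists and was named after its values were seen. Some genes that the naming rules gave are not reported here. Positions were taken from GENCODE M39 (GRCm39), where all 10 members matched by Ensembl identifier.

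The alternatives were DESeq2 1.42.0, edgeR with DESeq2 size factors, voom from limma 3.58.1 (with quality weights per sample), no filter on low counts, at least 10 counts in every sample, calls that also needed an absolute log2 fold change over 1, a fit of the compared groups alone, 0010 kept, a covariate for library numbers 18 to 23, a covariate from sva 3.50.0 (1 surrogate variable) and each sample left out in turn. The fit was tested on simulated counts with 200 of 18759 genes given a log2 change of 1.5 between Control APP/PS1 and Control WT. edgeR recovered 102 of them (51%) with 1 false call, DESeq2 105 with 29 and limma voom 97 with 5, and with no gene changed they made 0, 12 and 0 calls.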

Additional observations from a re-analysis of the deposited data

Results flagged for a closer look

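Of the 40 sets of values of 1 member in 1 group, 3 held a sample whose gap to its nearest neighbour was a large share of the group's range, by Dixon's 95% critical value, which chance exceeds in about 1 in 20 groups. Ctsh in Control APP/PS1 0017 was 710.1 CPM, the lowest of 6, with the next at 834 CPM. Ctsl in Control APP/PS1 0013 was 3006 CPM, the highest of 6, with the next at 2304 CPM. Ctsk in Control WT 0015 was 1.83 CPM, with the next at 0.163 CPM and the other 4 at 0. Control WT 0015 is also one of the 2 libraries of its group that were high in choroid plexus markers, at 1015 CPM summed. Without Ctsl in 0013 the Control groups still did not overlap, since 0013 was the highest sample of the higher group.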

How the results depend on the processing

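In Control APP/PS1 against Control WT, 185 of 198 values of the 9 members over the alternatives kept their direction and their side of the threshold, and the other 13, of Ctss and Ctsa, kept their direction. Calls that also needed an absolute log2 fold change over 1 were not counted over all genes. By that rule, 3 members were called in Control APP/PS1 against Control WT and 3 in Slc11a2KD APP/PS1 against Slc11a2KD WT. In the latter, Ctsa passed the threshold with library numbers 18 to 23 as a covariate (0.41, adjusted p = 0.0321) and with 1 surrogate variable (0.45, adjusted p = 0.00130), Ctss and Ctsd missed it with only the compared groups (adjusted p = 0.0706 and 0.101), and Ctsa reversed with limma voom (-0.0030). In Slc11a2KD APP/PS1 against Control APP/PS1, 2 members were called with DESeq2, and between 0 and 4 with 1 sample left out, the 4 without 0004. The sign reversed there with the covariate for Ctsa (0.038), Ctsd (0.025), Ctss (0.089), Ctsh (-0.037) and Ctsl (-0.029), and with the surrogate variable for Ctss (0.035), Ctsh (-0.032) and Ctsl (-0.087). Ctsl also reversed with limma voom (-0.062), with 0010 kept (-0.042) and with only the compared groups (-0.012), and Ctsc with DESeq2 (0.0078), with its size factors in edgeR (0.0079) and with at least 10 counts in every sample (0.0006). In Slc11a2KD WT against Control WT, the covariate reversed Ctsa (0.23), Ctsb (0.10), Ctsd (0.071) and Ctss (0.18), limma voom Ctsa (0.077) and Ctss (0.029), and the surrogate variable Ctsa (0.0038). The interaction of Ctsb reversed with the surrogate variable (0.0065). The cause was not tested in any of these. With 1 sample left out in turn, the values that changed sign ranged from -0.026 to 0.088 for Cst3, -0.084 to 0.030 for Ctsc and -0.070 to 0.10 for Ctsl in Slc11a2KD APP/PS1 against Control APP/PS1. In Slc11a2KD WT against Control WT they ranged from -0.0091 to 0.12 for Cst3, -0.11 to 0.083 for Ctsa, -0.14 to 0.028 for Ctss and -0.097 to 0.017 for Ctsz, and in Slc11a2KD APP/PS1 against Slc11a2KD WT from -0.058 to 0.24 for Ctsa. The number of members called with 1 sample left out was 7 to 8 in Control APP/PS1 against Control WT, 6 to 8 in Slc11a2KD APP/PS1 against Slc11a2KD WT, and 0 in Slc11a2KD WT against Control WT and in the interaction. Over all genes, 1965 were called in Control APP/PS1 against Control WT, but 3421 with limma voom, 3797 with the surrogate variable, 3241 with only the compared groups and 1282 without 0012 and 0015 (chosen after seeing the data, 6 members). In Slc11a2KD APP/PS1 against Slc11a2KD WT, 3034 were called, but 1773 with the covariate, 1041 with only the compared groups (5 members) and 861 of 18366 with only knockdown libraries 18 to 23 (chosen after seeing the data). With 5 or 6 samples a group, a member that missed the threshold is not shown to be unchanged.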
